A study of Mus musculus with 15 samples.

Results

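Brakes on the macrophage response to bacteria were followed as transcripts of chromatin-associated RNA: Zfp36, Dusp1 and Atf3. The members are the 3 transcripts ENSMUST00000051241 (Zfp36), ENSMUST00000025025 (Dusp1) and ENSMUST00000027941 (Atf3), 1 principal spliced transcript for each gene, of 113193 transcripts in the files. They were named by identifier as genes known to damp the response. The rule uses no measured value, but it was proposed with earlier results of these data known. The files hold no gene names, so the symbols are those of that selection, and other isoforms of the 3 genes were not counted. All 3 passed the filter on low counts, as did 46186 transcripts in all. The cells were bone marrow-derived macrophages of C57BL/6 mice, grown with L929-conditioned medium to day 7 of differentiation. They were left untreated or treated with 10 ng/ml lipopolysaccharide (LPS, a component of the bacterial outer membrane) for 30 min, 1 h, 2 h or 4 h, with 3 libraries in each of the 5 groups. No genotype or other agent differed between the groups in the labels. The libraries were unstranded and held 7537521 to 11892599 estimated counts. One transcript took 9.66% to 41.2% of the counts of a library, so shares of the total moved with it and folds were taken after TMM scaling. Macrophage markers could not be looked up, because no table used here pairs the identifiers with genes.

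Zfp36 encodes tristetraprolin, a zinc finger protein that binds AU-rich elements in the tails of cytokine mRNAs, Tnf among them, and brings in the machinery that removes the poly(A) tail and degrades the message. Dusp1 encodes a nuclear phosphatase that inactivates the stress-activated MAP kinases and thereby shortens the signal that LPS starts through its receptor. Atf3 encodes a leucine zipper factor of the ATF/CREB family which, in mouse macrophages, represses cytokine genes such as Il6. All are known as early response genes whose own transcription is switched on by the signals they later damp. RNA that stays with chromatin is rich in transcripts still being made, so its level is read as closer to synthesis than that of total RNA.

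The sequences upstream of the 3 starts are shown because the level of each transcript at 30 min of LPS lay above untreated cells in every library. They are the 250 bases before the start annotated by RefSeq (build GRCm38.p6, a build that the files do not name), written 5′ to 3′ on the minus strand, on which all 3 genes lie. The windows were matched by gene and not by transcript, so whether these starts are those of the measured transcripts was not checked. Capitals mark matches to the CRE palindrome TGACGTCA, its core TGACG and the CArG box, on either strand.
Zfp36, chr7:28379229-28379478: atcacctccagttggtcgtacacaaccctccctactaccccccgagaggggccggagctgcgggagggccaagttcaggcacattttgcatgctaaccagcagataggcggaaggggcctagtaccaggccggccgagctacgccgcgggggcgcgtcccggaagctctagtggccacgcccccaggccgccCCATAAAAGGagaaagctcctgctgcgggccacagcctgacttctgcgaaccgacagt
Dusp1, chr17:26508473-26508722: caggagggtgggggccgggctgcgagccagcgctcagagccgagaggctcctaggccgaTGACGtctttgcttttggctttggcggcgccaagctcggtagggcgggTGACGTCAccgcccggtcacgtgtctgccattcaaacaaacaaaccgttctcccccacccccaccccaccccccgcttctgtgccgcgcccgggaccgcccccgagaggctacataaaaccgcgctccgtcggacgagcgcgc
Atf3, chr1:191183334-191183583: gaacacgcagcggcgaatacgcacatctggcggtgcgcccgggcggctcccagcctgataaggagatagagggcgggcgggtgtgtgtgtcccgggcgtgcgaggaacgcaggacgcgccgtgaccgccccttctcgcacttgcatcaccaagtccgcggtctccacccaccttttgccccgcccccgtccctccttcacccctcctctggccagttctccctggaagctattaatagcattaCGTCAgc

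The CRE is the element that CREB and ATF factors bind, and the CArG box is bound by serum response factor. The Dusp1 window held 1 CRE palindrome, from 143 to 136 bases before the start, and 3 cores, 2 of which overlap inside the palindrome. The Atf3 window held 1 core, on the opposite strand and ending 3 bases before the start. In the Zfp36 window there was no core, but 1 CArG box lay 58 to 49 bases before the start. Over the 32851 upstream windows of the same length in the table, which include several starts for some genes, 1.55% held the palindrome, 17.8% a core and 1.47% a CArG box. The GC box GGGCGG was found at 1 place in the Zfp36 window, 3 in the Dusp1 window and 5 in the Atf3 window, and in 32.7% of all windows. The E box CANNTG occurred in all 3 and in 66.2% of all windows. No match was found in these 3 windows for the AP-1 site TGANTCA (6.75% of all windows), the NF-kB consensus (3.90%), the TATA core TATAAA (12.4%) or the box CCAAT (33.8%). These are matches of letters only, in windows with 64.8% (Zfp36), 68.4% (Dusp1) and 65.2% (Atf3) G and C, against a mean of 53.2% over all windows.

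**Figure D1:**
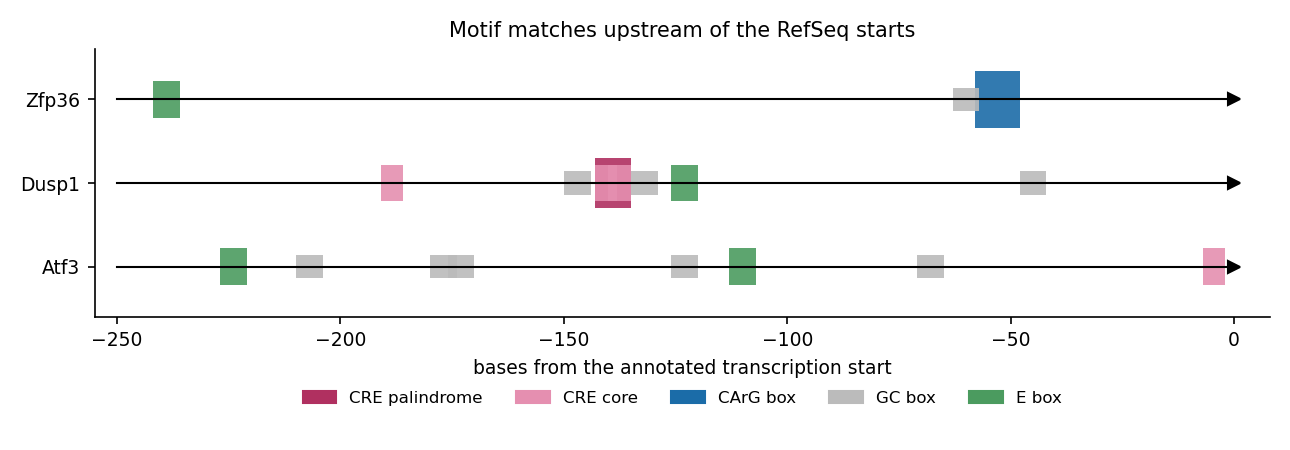
Motif matches in the 250 bases upstream of the RefSeq starts of Zfp36, Dusp1 and Atf3; the x axis is the distance in bases from the start (arrowhead), boxes are matches on either strand, and box heights only tell motifs apart. The CRE palindrome is in the Dusp1 window, the CArG box in the Zfp36 window and a lone CRE core in the Atf3 window.

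Zfp36, the mRNA decay factor, was higher at 30 min than in untreated cells in every same-numbered pair of libraries, as it was at each later time to 4 h. In the order of replicates 1, 2 and 3, its level in untreated cells was 12.9, 6.36 and 2.38 TPM (a level per length of transcript, scaled to the library). The 30 min libraries had 118, 60.6 and 18.3 TPM, the 1 h libraries 111, 18.5 and 12.6 TPM, the 2 h libraries 55.1, 20.1 and 6.65 TPM and the 4 h libraries 74.3, 19.3 and 5.68 TPM. Replicate 1 was the highest and replicate 3 the lowest of every group. The groups at 30 min and 1 h did not overlap with untreated cells in CPM (counts scaled to the TMM-adjusted library size, with no correction for length), while those at 2 h and 4 h did, since replicate 3 after LPS lay under replicate 1 of untreated cells. Overlap of groups is only a description here and below, as the share of all transcripts without overlap was not counted.

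Taken within replicate numbers, the ratio of Zfp36 CPM at 30 min to untreated cells was 10.2, 18.2 and 8.71. After 1 h it was 11.7, 4.61 and 5.85, after 2 h 6.07, 5.45 and 3.10 and after 4 h 9.34, 5.75 and 3.84, so that all 12 pairs were higher after LPS. Replicate numbers were shared across groups in the data as a whole: the deviations of same-numbered libraries from their group means correlated in all 30 pairs (r from 0.216 to 0.483), and those of different numbers had r from -0.31 to -0.01 in 60 pairs. Deviations within a group cancel out, so positive r for same numbers brings negative r for different numbers, which is no separate evidence. For Zfp36 itself, 90.8% of the squared deviations within groups, in log2(CPM + 0.5), lay between the replicate numbers. The share was lower for Dusp1 (46.1%) and Atf3 (44.2%). The values are therefore given without and with the replicate number as a block.

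In the fit with a term for group only, Zfp36 did not pass the test at any time, with log2 fold changes over untreated cells of 3.62 (SE 1.12) for 30 min of LPS, 3.12 (SE 1.09) for 1 h, 2.44 (SE 1.07) for 2 h and 2.90 (SE 1.08) for 4 h (edgeR quasi-likelihood test, Benjamini-Hochberg adjusted p = 0.328, 0.256, 0.281 and 0.147). With the replicate number as a block, Zfp36 rose at all 4 times, by 3.62 (SE 0.41), 2.83 (SE 0.39), 2.23 (SE 0.39) and 2.58 (SE 0.39) on the log2 scale (edgeR, adjusted p = 0.00439, 0.0055, 0.00623 and 0.00182). The block left the size of the change much as it was and cut its standard error.

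Dusp1, the MAP kinase phosphatase, was close to absent in untreated libraries and ranged up to 165 TPM after LPS, but varied widely between libraries of a group. In untreated cells it had 2.55 and 3.14 TPM in replicates 1 and 2 and was listed at 0 in replicate 3. It had 49.8, 165 and 78.9 TPM at 30 min and 136, 52.0 and 57.9 TPM at 1 h in replicates 1, 2 and 3. At 2 h it had 76.0 and 61.3 TPM in replicates 1 and 2 and was listed at 0 in replicate 3, and at 4 h it had 10.8, 42.7 and 4.43 TPM. All 6 libraries at 30 min and 1 h, and the 3 at 4 h, lay above all 3 untreated libraries, and the 2 h group overlapped with them through the library at 0.

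A count of 0 in 2 h replicate 3, a library of 10493492 estimated counts in which Atf3 had 1489 counts, stood beside 511 and 471 Dusp1 counts in the other two libraries of that group. A 0 allows up to 3 counts, here 0.252 CPM, and in untreated replicate 3 up to 0.345 CPM; such floors cover counting error only. Estimated counts are also the outcome of dividing reads among transcripts that share sequence, and what that division did for Dusp1 was not tested. A library at 0 beside at least 2 libraries of 10 CPM or more in the same group occurred in 480 of 17315 transcripts (2.77%) whose mean reached 10 CPM in some group. The Dusp1 results are given with and without these 2 libraries.

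The ratio of Dusp1 CPM at 30 min to untreated cells was 21.9 in replicate 1 and 99.2 in replicate 2, and at least 180.5 in replicate 3, where the untreated library was set to 3 counts. At 1 h it was 72.9, 25.9 and at least 128, and at 4 h 6.90, 25.5 and at least 14.4. At 2 h it was 42.6 and 33.2 in replicates 1 and 2, with no ratio for replicate 3. Every pair with a ratio was higher after LPS.

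No call was made for Dusp1 by edgeR over all libraries: the log2 fold changes were 6.38 (SE 1.86) for 30 min of LPS, 5.86 (SE 1.81) for 1 h, 5.17 (SE 1.76) for 2 h and 4.22 (SE 1.69) for 4 h (quasi-likelihood test, adjusted p = 0.279, 0.182, 0.154 and 0.177; with the block 0.104, 0.0531, 0.0685 and 0.0901). Without the 2 libraries at 0 and with the block, a setting chosen after seeing the data, Dusp1 rose at 2 h by 5.27 (SE 1.01) and at 4 h by 3.60 (SE 0.93) on the log2 scale (edgeR, adjusted p = 0.0305 and 0.0479). At 30 min and 1 h it then had log2 fold changes of 6.00 (SE 1.05) and 5.79 (SE 1.03) and missed the threshold (edgeR, adjusted p = 0.078 and 0.0504). Without those libraries and without the block it passed at no time (edgeR, adjusted p = 0.166, 0.134, 0.101 and 0.109). DESeq2 on all libraries called Dusp1 higher at all 4 times (adjusted p = 0.0017, 0.00366, 0.0115 and 0.0394). Its joint test of any change over the groups did not pass for Dusp1 (DESeq2 likelihood ratio test, adjusted p = 0.0628).

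Atf3, the repressor, had the highest level of the 3 transcripts in all 15 libraries and rose at 30 min, 1 h and 4 h. In the order of replicates 1, 2 and 3, untreated cells had 119.6, 60.3 and 62.0 TPM. The 30 min libraries had 1154, 618 and 356 TPM, the 1 h libraries 829, 318 and 297 TPM, the 2 h libraries 199, 143 and 164 TPM and the 4 h libraries 204, 213 and 167 TPM. At 30 min the transcript ranked 20 by TPM in replicate 1, 107 in replicate 2 and 150 in replicate 3, and in untreated cells 732, 2108 and 1548, of all transcripts in the files. No LPS group overlapped with untreated cells in CPM at any time, with no share of all transcripts to set beside it.

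The ratio of Atf3 CPM at 30 min to untreated cells was 10.8, 19.4 and 6.63 in replicates 1, 2 and 3. After 1 h it was 9.40, 8.30 and 5.36, after 2 h 2.37, 4.07 and 2.99 and after 4 h 2.77, 6.64 and 4.38. In the fit with a term for group only the log2 fold changes were 3.54 (SE 0.47) for 30 min of LPS, 2.98 (SE 0.46) for 1 h, 1.57 (SE 0.43) for 2 h and 2.07 (SE 0.44) for 4 h (edgeR quasi-likelihood test, adjusted p = 0.00902, 0.00995, 0.0778 and 0.0159). With the block the rise passed the test at 2 h too, at 1.60 (SE 0.34; edgeR, adjusted p = 0.0163). That 2 h call was lost with the block once the 2 libraries that list Dusp1 at 0 were left out (1.62, SE 0.43, edgeR, adjusted p = 0.0762). The calls of the fit without the block were lost without untreated replicate 2 or 3, where adjusted p was 0.0829 and 0.0567 at 30 min, 0.0824 and 0.0635 at 1 h, and 0.0824 and 0.0688 at 4 h (edgeR).

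**Figure D2:**
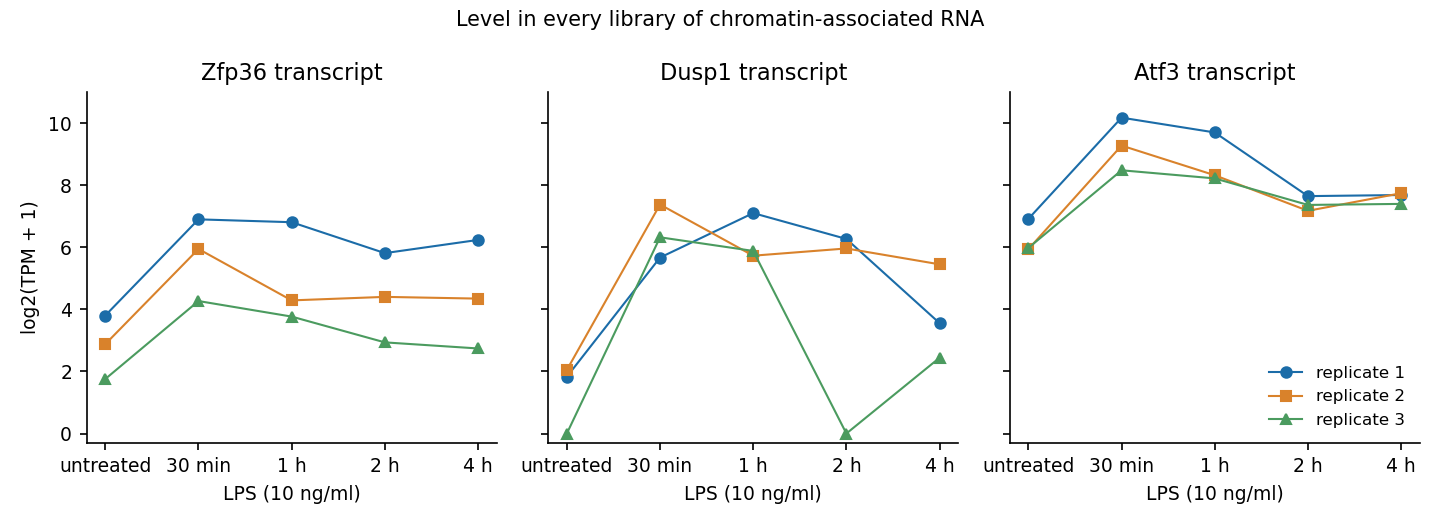
Level of each transcript as log2(TPM + 1) on the y axis in each of the 15 libraries, against treatment on the x axis, with lines joining libraries of the same replicate number. Zfp36 keeps the order of replicates 1, 2 and 3 in every group, Dusp1 is at 0 in replicate 3 of untreated cells and of 2 h, and Atf3 is highest in each replicate at 30 min.

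Set against the background of all transcripts, 1 of the 3 members was called higher at 30 min, where 0.351% of the 46186 transcripts tested were, 1 after 1 h (0.944%), 0 after 2 h (1.97%) and 1 after 4 h (3.91%). With the block, 2 were called at each time, against 0.916%, 2.93%, 6.42% and 8.87% of all transcripts. DESeq2 called 3, 3, 2 and 3 of them, against 1.92%, 3.79%, 5.59% and 7.97%. Without the 2 libraries that list Dusp1 at 0, and with the block, 2, 2, 2 and 3 were called, against 0.25%, 0.65%, 2.81% and 5.31%. Those libraries were left out for the value of Dusp1 itself, so its calls at 2 h and 4 h in that setting are conditional on that choice and are no independent support. In the joint test of the 4 times, Atf3 changed (edgeR, adjusted p = 0.00417) and Zfp36 and Dusp1 did not pass (adjusted p = 0.323 and 0.249), where 6.37% of all transcripts were called. With the block, Zfp36 and Atf3 passed it (edgeR, adjusted p = 0.0021 and 0.00105) and Dusp1 did not (adjusted p = 0.0761), against 16.3% of all. The joint test of DESeq2 did not pass for Zfp36 or Dusp1 (likelihood ratio test, adjusted p = 0.101 and 0.0628), while Atf3 passed it (adjusted p = 6.75e-12). The members are known response genes, so their share of calls says nothing about response genes in general.

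**Figure D3:**
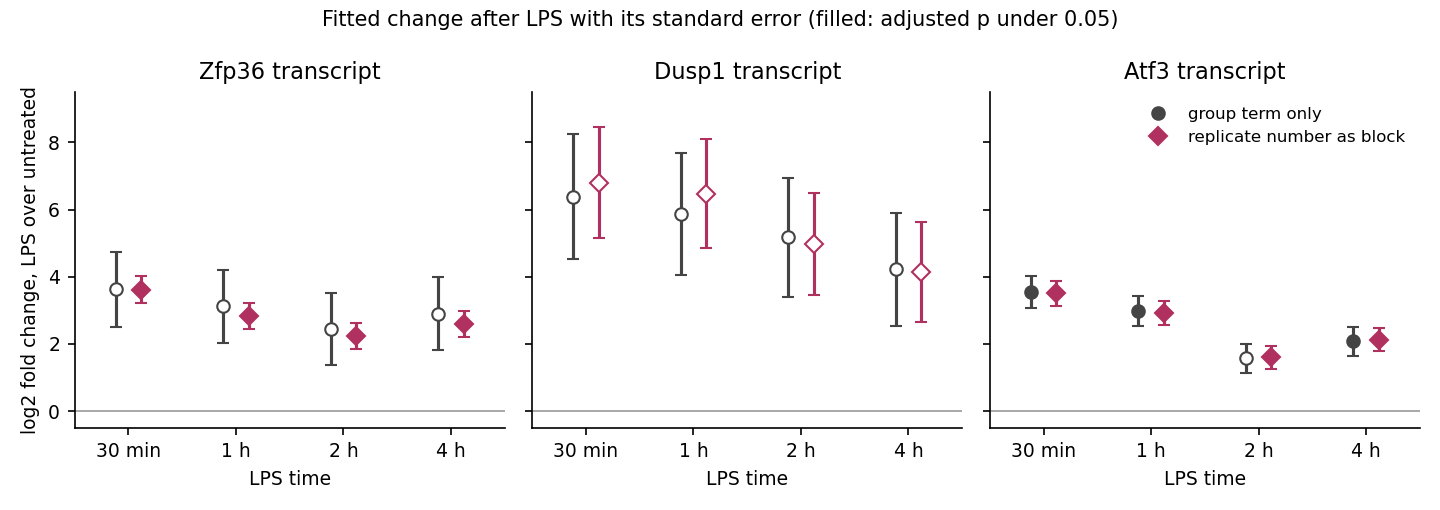
Fitted log2 fold change of LPS over untreated cells (y axis) with its standard error (bars) at each LPS time (x axis), for the fit with a group term only (circles) and with the replicate number as a block (diamonds); filled symbols have an adjusted p under 0.05. The bars of Zfp36 shorten from about 1.1 to about 0.4 with the block, while those of Dusp1 stay above 1.4.

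The LPS times were then compared with each other, to ask whether the transcripts fell back by 4 h. Atf3 was lower at 2 h than at 30 min, with a log2 fold change of -1.97 (SE 0.44; edgeR, adjusted p = 0.0483), a call that 0.431% of all transcripts had in that direction. That call was narrow: leaving out any 1 library kept the log2 fold change between -2.28 and -1.76 but kept the call in 1 of 15 fits, the one without 1 h replicate 1. The mean of 2 h and 4 h lay below that of 30 min and 1 h by a log2 fold change of -1.44 (SE 0.31; edgeR, adjusted p = 0.0107), against 4.22% of all transcripts called lower, and this passed in all 15 fits with 1 library left out. Neither Zfp36, at -0.70 (SE 0.72), nor Dusp1, at -1.43 (SE 1.05), passed that test (edgeR, adjusted p = 0.646 and 0.482). With the block the late level was lower for Atf3 again, at -1.35 (SE 0.24; edgeR, adjusted p = 0.00361; 8.2% of all transcripts), and missed the threshold for Zfp36, at -0.82 (SE 0.26; adjusted p = 0.0515), and for Dusp1, at -2.09 (SE 0.97; adjusted p = 0.172). Without the 2 libraries that list it at 0, Dusp1 changed by -1.13 (SE 0.63) without the block and -1.46 (SE 0.56) with it (edgeR, adjusted p = 0.332 and 0.125).

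At 4 h, CPM relative to 30 min in the same replicate number was 25.7%, 34.2% and 66.1% for Atf3 in replicates 1, 2 and 3. It was 31.5%, 25.7% and 7.99% for Dusp1 and 91.3%, 31.7% and 44.1% for Zfp36. All 9 values lay under the 30 min level, and the share was lower for Dusp1 than for Zfp36 in each replicate number, a difference that was not tested. The edgeR test of 4 h against 30 min called none of the 3 without the block (2.31% of all transcripts lower; log2 fold changes -1.47 for Atf3, -2.16 for Dusp1 and -0.72 for Zfp36) and Atf3 alone with it, at -1.38 (SE 0.34; edgeR, adjusted p = 0.0251; 5.59% lower). Without the 2 libraries that list it at 0, Dusp1 changed by -2.16 (SE 0.85) without the block and -2.40 (SE 0.73) with it (edgeR, adjusted p = 0.209 and 0.0768). DESeq2, without a block, called Atf3 lower at 4 h than at 30 min, at -1.52 (SE 0.44; adjusted p = 0.0071; 6.4% of all transcripts lower), and edgeR with library size alone and the most abundant transcript left out did too (-1.85, adjusted p = 0.0234, where the median of all transcripts was -0.40).

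By mean CPM the order of the groups was 30 min, 1 h, 4 h, 2 h and untreated for Zfp36 (73.8 ± 45.7, 52.0 ± 56.6, 44.7 ± 43.9, 32.6 ± 26.9 and 5.95 ± 3.84, SD, n = 3 each). Atf3 had the same order (544 ± 229, 369 ± 196, 196 ± 30, 139 ± 12 and 46.6 ± 14.7, SD, n = 3 each). For Dusp1 the order was 30 min, 1 h, 2 h, 4 h and untreated (90.8 ± 79.6, 63.1 ± 30.0, 39.2 ± 34, 20.2 ± 22.8 and 1.05 ± 0.94, SD, n = 3 each, with 0 entered for the 2 libraries listed at 0). Within single replicate numbers the order of the means held throughout for Atf3, but only in replicate 3 for Zfp36 and in none for Dusp1. In replicate 1, Zfp36 and Dusp1 were highest at 1 h, at 117 CPM (103 at 30 min) and 97.7 CPM (29.4 at 30 min). Neighbouring LPS times in the orders of the means were not told apart by edgeR with or without the block. By edgeR no member was called between 1 h and 30 min, where 0 of all transcripts were called with or without the block (2174 at an unadjusted p under 0.05 without it, and 233 called by DESeq2), nor between 4 h and 2 h (0.052% of all called, 0.829% with the block). Nor did edgeR call one lower at 2 h than at 1 h (0.0974% of all, 1.52% with the block) or at 4 h than at 1 h (1.84%, 4.97% with the block). DESeq2 called Atf3 lower at 2 h than at 1 h, at -1.47 (SE 0.44; adjusted p = 0.0189; 2.74% of all transcripts lower), and the CPM of these groups did not overlap. With the block Zfp36 fell between 30 min and 2 h too, at a log2 fold change of -1.38 (SE 0.37; edgeR, adjusted p = 0.049), and so did Atf3 (-1.90, SE 0.35; adjusted p = 0.0111), where 2.7% of all transcripts were called lower. That Zfp36 call was narrow, and with the block it was lost without the 2 libraries that list Dusp1 at 0 (-1.32, edgeR, adjusted p = 0.151). Atf3 kept its call there (-2.07, edgeR, adjusted p = 0.0389). In bulk samples fewer responding cells and less RNA per cell cannot be told apart.

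Levels of the 3 transcripts can be compared within a library per length, which also takes out the scaling between libraries. The mean log2 ratio of Atf3 to Zfp36 TPM was 3.72 ± 0.85 in untreated cells (SD, n = 3 here and for each time), then 3.64 ± 0.56 after 30 min, 3.85 ± 0.85 after 1 h, 3.10 ± 1.40 after 2 h and 3.27 ± 1.72 after 4 h. At 30 min, where both were at their highest mean, the ratio thus differed from untreated cells by -0.08, less than the spread between libraries (exact permutation test, two-sided p = 1, where 3 against 3 give no p below 0.1). Dusp1 lay above Zfp36 in 8 of the 12 LPS libraries and in none of the 3 untreated ones. The mean log2 ratio of Dusp1 to Zfp36 was 0.77 ± 1.78 at 30 min and 1.33 ± 0.96 at 1 h (n = 3), against -1.68 ± 0.94 in untreated cells (n = 2, since a library at 0 has no ratio). Between the 6 libraries of 2 h and 4 h and the 6 of 30 min and 1 h the mean ratio changed by -0.56 for Atf3 over Zfp36, by -1.04 for Dusp1 over Zfp36 and by 0.19 for Atf3 over Dusp1, with 5 late libraries in the ratios that involve Dusp1 (exact permutation tests, two-sided p = 0.398, 0.303 and 0.835). These 3 tests did not pass after Benjamini-Hochberg adjustment over 15 tests of ratios (lowest exact adjusted p = 0.667). The other 12, each of an LPS time against untreated cells, could not have passed, since the smallest exact p is 0.1 for 3 libraries against 3, 0.2 for 3 against 2 and 0.333 for 2 against 2. Among them, the log2 ratio of Dusp1 to Zfp36 at 1 h did not overlap with untreated cells (0.30 to 2.20, against -2.34 to -1.02), a difference of 3.01 at that smallest p of 0.2 (exact permutation test). The log2 ratio of Atf3 to Dusp1 at 1 h did not overlap either (2.36 to 2.61, against 4.27 to 5.55), a difference of -2.38 at the same exact p. Both ratios were also apart from untreated cells at 2 h, with 2 libraries against 2. Dusp1 to Zfp36 was 0.46 to 1.61 (difference 2.72) and Atf3 to Dusp1 1.23 to 1.39 (difference -3.60), each at the smallest exact p of 0.333.

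The 3 patterns were set beside those of the other abundant transcripts. Over the 15 libraries, log2 CPM of Zfp36 correlated with that of Atf3 at r = 0.81 and of Dusp1 at r = 0.78, and Dusp1 with Atf3 at r = 0.75. Among the 17314 other transcripts whose mean reached 10 CPM in some group, Atf3 ranked 61 and Dusp1 136 by correlation with Zfp36. Zfp36 ranked 73 and Atf3 111 by correlation with Dusp1, and Zfp36 ranked 116 and Dusp1 238 by correlation with Atf3. The libraries share their time, replicate number and depth, so these are descriptions of a common profile and carry no p. Correlations with Dusp1 include the libraries that list it at 0 and were not taken without them. Other isoforms of the 3 genes could not be recognised, so they may be among the transcripts ranked here and named next. Apart from the 3 members, the transcripts with the highest mean correlation with them were ENSMUST00000209061 (2465 nt, mean r = 0.88, and 0.96 with Zfp36) and ENSMUST00000025867 (2716 nt, mean r = 0.87). The first had a mean of 468 ± 270 CPM at 30 min and 263 ± 165 CPM at 4 h, against 31.9 ± 9.1 CPM in untreated cells (SD, n = 3 each), and was not called at any time without the block (edgeR, adjusted p from 0.0742 to 0.181). With the block it was called higher at all 4 times (at 30 min 3.60, SE 0.47; edgeR, adjusted p from 0.00299 to 0.022). The second had 93.9 ± 25.2 CPM at 30 min against 28.7 ± 5.6 CPM in untreated cells (edgeR, adjusted p = 0.123), and with the block it was called higher at all 4 times as well (at 30 min 1.72, SE 0.31, edgeR, adjusted p from 0.0135 to 0.0297). Both were chosen for likeness to the members in these same libraries. Their rise and calls thus reflect that choice and are no independent support.

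**Figure D4:**
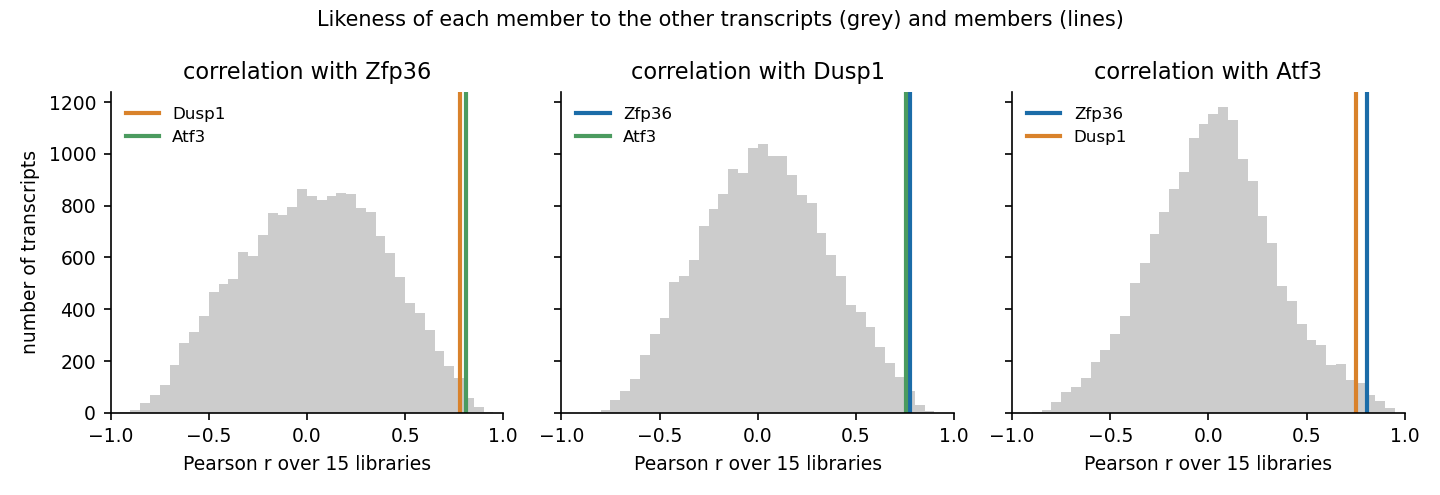
Number of transcripts (y axis) by Pearson correlation (x axis) of their log2 CPM with each member over the 15 libraries; grey bars are the 17314 other transcripts averaging 10 CPM or more in some group and coloured lines the other members. The lines lie between 0.75 and 0.81, in the right tail of each histogram.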

How the data were processed

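Chromatin-associated RNA of 15 macrophage libraries was sequenced, with kallisto 0.44.0 as the quantifier per the submitters' processing notes. The authors' tables hold, for 113193 transcripts, kallisto's estimated count and the TPM computed from it, as deposited. The sources used here give neither annotation, genome build nor settings for reads shared by isoforms. Intronic reads enter only where an annotated transcript includes them. Groups and replicate numbers follow the labels. The labels do not say whether replicates were separate cultures or animals; p-values thus rest on a spread between libraries that may be technical.

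Estimated counts were rounded and tested with edgeR 4.0.16 (R 4.3.3, quasi-likelihood, TMM, filterByExpr with a minimum count of 10 and minimum total of 15), with all 15 libraries in 1 fit and p-values adjusted over 46186 transcripts by the Benjamini-Hochberg method. A call is an adjusted p under 0.05. The group-only edgeR fit was tested on simulated counts without an effect of replicate number, and the blocked fit was not tested in this way. Same-numbered libraries deviated together (30 of 30 pairs above r = 0.1), so blocked values stand beside those without the block. DESeq2 1.42.0, limma 3.58.1 on log2(TPM + 1) and log2(TPM + 0.1), other scalings, no filter, fits of the compared groups only and leaving out each library were alternatives. Exact permutation tests of ratios used the deposited TPM values, without libraries at 0. The named transcripts are the members and the 2 others of highest mean correlation with them. The proposal of these members, the motifs and the tests were made with earlier results of these data known. Lists of cell type markers and of related pathway genes were not used, since 0 identifiers matched the RefSeq table.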

Additional observations from a re-analysis of the deposited data

Results flagged for a closer look

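The effect of LPS on Atf3 differed between times by the test of the difference itself. It was smaller at 2 h than at 30 min by a log2 fold change of -1.97 (edgeR, adjusted p = 0.0483; lower at 2 h in all 3 same-numbered pairs, but past the threshold in 1 of 15 fits with a library left out), and smaller over 2 h and 4 h than over 30 min and 1 h by -1.44 (adjusted p = 0.0107; past it in 15 of 15). No Zfp36 or Dusp1 difference between LPS times passed the same test without the block. With 3 libraries in a group, no search for single libraries far from the rest was made.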

How the results depend on the processing

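The direction of each change against untreated cells was the same in all 26 alternatives, while the calls were not. Passing where the group-only fit did not were Zfp36 with the replicate block (log2 fold changes 3.62, 2.83, 2.23 and 2.58 at 30 min, 1 h, 2 h and 4 h; joint adjusted p = 0.0021) and with DESeq2 (3.66, 3.13 and 2.87 at 30 min, 1 h and 4 h). So did Dusp1 with DESeq2 (6.48, 5.90, 5.15 and 4.24) and Atf3 at 2 h with the replicate block (1.60) and with DESeq2 (1.5). Zfp36 and Dusp1 did not pass the joint test of DESeq2 (likelihood ratio test, adjusted p = 0.101 and 0.0628). Without the 2 libraries that list Dusp1 at 0, and with the block, Zfp36 passed (3.85, 3.07, 2.53 and 2.81; joint edgeR adjusted p = 0.0147), as did Dusp1 at 2 h and 4 h (5.27 and 3.60; joint edgeR adjusted p = 0.0319). Atf3 at 2 h did not pass in that setting (1.62, edgeR adjusted p = 0.0762). Atf3 lost its call without those 2 libraries and with no block (3.48 at 30 min, 2.92 at 1 h, 2.01 at 4 h), with only the compared groups in the fit (3.56 at 30 min and 3.02 at 1 h), with library size alone (2.58 at 1 h, 1.25 at 4 h; 1.34 at 4 h without the most abundant transcript), with limma on log2(TPM + 1) (1.33 at 4 h) and on log2(TPM + 0.1) (2.48 at 1 h, 1.34 at 4 h). The median of all transcripts at 4 h was -0.06 with TMM and -0.85 with library size alone, so folds are relative to the typical transcript.

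Leaving out 1 library moved Atf3 between 3.34 and 3.86 at 30 min, 2.47 and 3.26 at 1 h and 1.90 and 2.34 at 4 h, Dusp1 at 2 h between 4.63 and 5.76 (past the threshold without 2 h replicate 3) and the late against early change of Zfp36 between -1.27 and 0.0077 (the upper end without 1 h replicate 1). Differences without a call turned sign in Dusp1 at 1 h against 30 min (-0.98 to 0.51) and, for Zfp36, 2 h against 1 h (-1.50 to 0.74), 4 h against 1 h (-1.37 to 1.20) and 4 h against 2 h (-0.69 to 1.28; -0.0167 without the 2 libraries at 0), and Dusp1 at 4 h against 2 h was 0.72 in limma on log2(TPM + 0.1). The ratio of Atf3 to Zfp36 changed by 0.14 at 30 min with TPM + 1. Without all libraries of 1 replicate number, the ratio of Atf3 to Zfp36 changed by -0.17 to 0.092 at 30 min, -0.23 to 0.35 at 1 h and -0.79 to 0.20 at 4 h, and that of Atf3 to Dusp1 by -0.62 to 0.71 from early to late times. Counts of all transcripts called ranged from 0 to 1120 (170 in the group-only fit) at 30 min, 46 to 2491 (480) at 1 h, 112 to 4376 (1184) at 2 h, 1172 to 6992 (2884) at 4 h, 2880 to 8256 (4428) late against early and 1597 to 8404 (2942) in the joint test. Of the 3 transcripts Dusp1 had the fewest counts in untreated libraries, at 0 to 24.2, so its folds over untreated cells rest on few counts.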
